A study of Oryza sativa with 4 samples.

Results

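OsbZIP77 (also named FD1) and OsbZIP42 (also named HBF1) had peaks at the same 1171 places in the rice genome where OsbZIP69 (also named FD4) had none. A place was counted when an OsbZIP77 peak had an OsbZIP42 peak centre within 100 bp on its chromosome and no OsbZIP69 centre within 100 bp. These 1171 peaks were 56.9% of the 2059 OsbZIP77 peaks (exact 95% interval 54.7 to 59.0) and belong to 31683 peaks in the 4 lists of the study. They were chosen by the presence or absence of peaks in the 3 lists and are called 77/42-only peaks below. They are compared with the 814 OsbZIP77 peaks, 39.5% of the list (37.4 to 41.7), that had both an OsbZIP42 and an OsbZIP69 centre within 100 bp, called peaks of all 3 proteins. The remaining 74 OsbZIP77 peaks had neither partner. The OsbZIP42 list held 28323 peaks and the OsbZIP69 list 1107. With fewer OsbZIP69 than OsbZIP77 peaks, many OsbZIP77 peaks lack OsbZIP69 by list size alone. An OsbZIP42 partner was found for 1985 of the 2059 OsbZIP77 peaks. The 77/42-only peaks were therefore nearly all of the OsbZIP77 peaks without OsbZIP69, and their share does not show a selective pairing with OsbZIP42.

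The data are DAP-seq libraries, in which a tagged transcription factor made in vitro retains fragments of purified genomic DNA that are then sequenced. Each of OsbZIP77, OsbZIP42 and OsbZIP69 was fused to HALO, a tag that binds covalently to beads, and was incubated with leaf DNA of the rice cultivar Nipponbare. The negative control, HALO-GST, was the tag joined to glutathione S-transferase, an enzyme that is no transcription factor. Per the labels, the fusion proteins were made in rabbit reticulocyte lysate. For OsbZIP77 this rests on the protocol label alone, since its file name lacks the mark for the lysate that the names of the other 3 files carry. The DNA carried no chromatin and the proteins had no plant partner, so the peaks give what each protein bound on naked DNA. Each protein was represented by 1 library. No difference below has a replicate check and no test over samples was possible, so the values describe these libraries. Intervals are exact binomial 95% intervals and take in the counting error of peaks, not variation between libraries.

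bZIP proteins bind DNA as dimers, with a basic region that reads short motifs around an ACGT core and a leucine zipper that joins the partners. FD-type bZIPs carry florigen, the mobile flowering signal made in leaves, to DNA in the shoot apex. In rice, OsFD1 (OsbZIP77) is the partner through which the florigen Hd3a acts on floral genes. HBF1 (OsbZIP42) binds Hd3a too and is known as a repressor of flowering, and FD4 (OsbZIP69) is known as a promoter of flowering at the shoot apex. The peaks are named here by position alone, in the coordinates of the authors' files. Their genome build was not stated in the labels or headers used here, and no gene was assigned.

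The 77/42-only peaks were the weaker part of the OsbZIP77 list. Signal, the authors' value per peak on a scale that was not matched between libraries, ran from 10 to 69 with a median of 19 in the 77/42-only peaks, against 10 to 99 with a median of 28 in the peaks of all 3 proteins. The middle 50% of the values lay between 16 and 24 in the 77/42-only peaks and between 21.2 and 35.6 in the peaks of all 3 proteins. The distributions thus overlapped from 10 to 51, and above 51 there was 1 77/42-only peak, at 69. As a place in the list, where 0% is the strongest peak, the median was 63.8% for the 77/42-only peaks and 27.7% for the peaks of all 3 proteins, a difference of 36.0 percentage points. The presence of OsbZIP69 set the groups, so these values describe the choice of peaks.

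**Figure D1:**
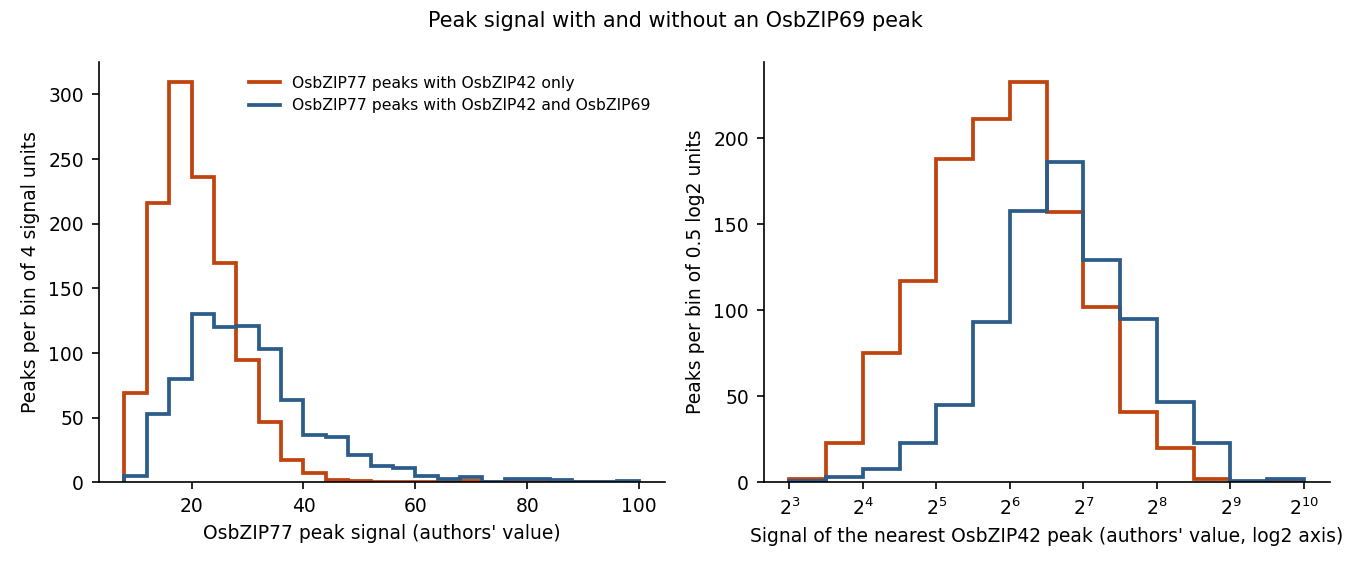
Number of peaks by OsbZIP77 signal (left, bins of 4 units) and by signal of the nearest OsbZIP42 peak (right, log2 axis) for the 1171 OsbZIP77 peaks with OsbZIP42 only and the 814 with OsbZIP42 and OsbZIP69. The OsbZIP77 medians are 19 and 28 and the OsbZIP42 medians 60.7 and 103.6, in that order, and both pairs of distributions overlap.

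At the top of the OsbZIP77 list a 77/42-only peak was rare. Of the 99 OsbZIP77 peaks of rank 100 or better, 3 were 77/42-only and 95 had all 3 proteins. In the strongest decile, with signals from 37 to 99, the share of 77/42-only peaks was 9.71% (6.03 to 14.6). It was 32.3% (26.1 to 38.9) in the second decile and 78.4% (72.1 to 83.8) in the seventh, with signals from 18 to 19.9. Below that the share changed little, with 73.2% (65.8 to 79.7) in the weakest decile, where more of the OsbZIP77 peaks had neither partner. Peaks of all 3 proteins were 42 of 208 in the seventh decile, 46 of 232 in the ninth and 12 of 168 in the weakest. OsbZIP69 was thus rarer in the weakest decile, though the share of 77/42-only peaks did not rise there.

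The OsbZIP42 peaks at these places were strong for OsbZIP42, though less so than where OsbZIP69 was present. The median OsbZIP42 signal was 60.7 at the 77/42-only peaks and 103.6 at the peaks of all 3 proteins, with middle 50% ranges of 37 to 96 and 70 to 165. The median place in the OsbZIP42 list was 13.8% at the 77/42-only peaks and 5.30% at the peaks of all 3 proteins. The 1171 peaks had 1171 different nearest OsbZIP42 peaks among the 28323 of that list. The peaks of all 3 proteins had 809 different ones. Of the OsbZIP42 list, 15.9% (14.6 to 17.3) of the strongest decile held a 77/42-only peak and 20.5% (19.0 to 22.0) held a peak of all 3 proteins.

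The order changed one decile lower. In the second decile of OsbZIP42 signal, from 47.3 to 73.9, 10.3% (9.23 to 11.5) of the peaks held a 77/42-only peak and 4.88% (4.12 to 5.74) a peak of all 3 proteins. In the fourth decile, from 29 to 35.6, the shares were 3.14% (2.53 to 3.84) and 0.592% (0.345 to 0.947) in the same order. Of the 77/42-only peaks, 112 lay at an OsbZIP42 peak ranked below 50% of the OsbZIP42 list, or 9.56% (7.94 to 11.4), against 16 of the peaks of all 3 proteins, or 1.97% (1.13 to 3.17). At the other end, 14 of the 100 strongest OsbZIP42 peaks held a 77/42-only peak and 58 a peak of all 3 proteins, counted by the OsbZIP42 centre nearest to each OsbZIP77 centre. The 265 OsbZIP69 peaks with OsbZIP42 but without OsbZIP77 had a median OsbZIP42 signal of 58, near the 60.7 of the 77/42-only peaks. They too were the weaker part of their own list, with a median place of 73.4% among OsbZIP69 peaks. The median place of the 77/42-only peaks among OsbZIP77 peaks was 63.8%, so a weak place was not particular to them.

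Since the groups differed in OsbZIP42 signal, OsbZIP77 was compared at like OsbZIP42 signal. The 1985 OsbZIP77 peaks with an OsbZIP42 partner were divided into 10 strata of nearly equal size by the signal of the nearest OsbZIP42 peak. In all 10 strata the 77/42-only peaks were weaker for OsbZIP77. In the weakest stratum, with OsbZIP42 signals from 10.5 to 28.4, the median OsbZIP77 signal was 14 in 171 77/42-only peaks and 16.5 in 28 peaks of all 3 proteins. In the fifth, from 64.4 to 76.5, it was 20 in 121 and 26 in 73 peaks. In the strongest, from 193.8 to 736, it was 24 in 53 and 32 in 146 peaks. The OsbZIP77 signal of 77/42-only peaks thus rose along the strata, and their medians stayed below those of the peaks of all 3 proteins.

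Averaged over the strata with the number of 77/42-only peaks as weights, these peaks stood 19.9 percentage points lower in the OsbZIP77 list than the peaks of all 3 proteins, and their signal was lower by 5.02 units (difference -5.02). The overall gap of 36.0 points was therefore 19.9 points among peaks of similar OsbZIP42 signal. The difference had the same direction on all 12 chromosomes, from 8.05 points on chromosome 10 to 25.4 points on chromosome 9. The groups still overlapped within strata: 269 of the 1171 peaks, or 23.0%, exceeded the median of the peaks of all 3 proteins in their own stratum. Strata 2 to 10 held peaks of nearly equal OsbZIP42 place, but in the weakest stratum the median OsbZIP42 signal was 21 for 77/42-only peaks and 23.8 for peaks of all 3 proteins, and in the strongest 237.3 and 257. OsbZIP42 signal was measured in 1 library, so differences in true strength within a stratum remain.

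**Figure D2:**
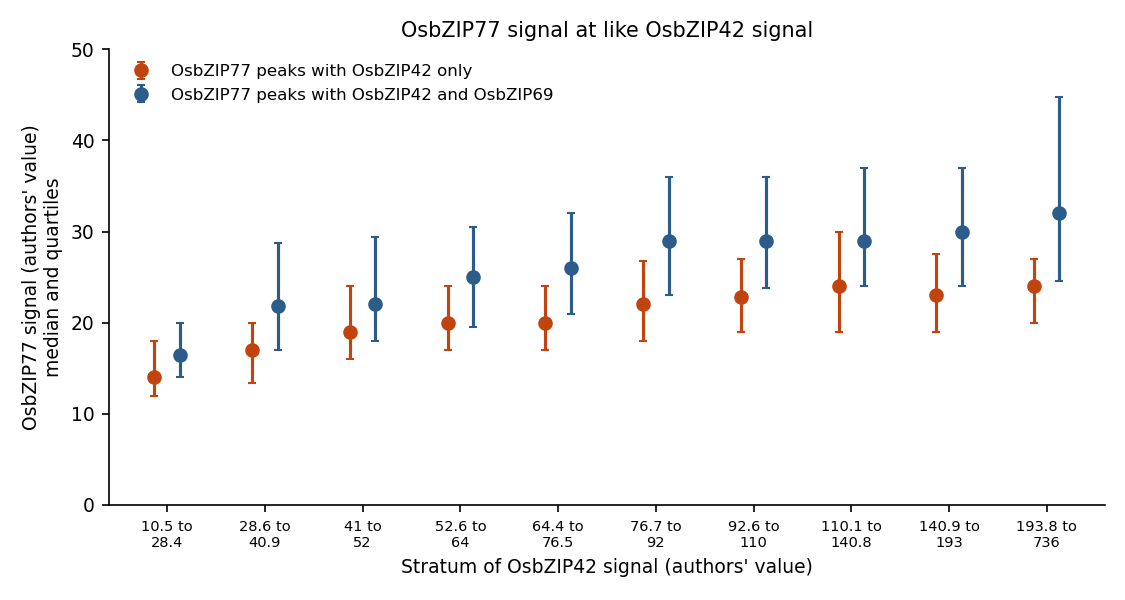
Median OsbZIP77 signal (points) with the middle 50% of peaks (bars) in 10 strata of OsbZIP42 signal, for OsbZIP77 peaks with OsbZIP42 only and for those with OsbZIP42 and OsbZIP69. The first group has the lower median in every stratum, from 14 against 16.5 to 24 against 32, and the bars overlap.

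The reverse comparison gave the same direction. Among peaks of similar OsbZIP77 signal, the OsbZIP42 signal was lower at the 77/42-only peaks in all 10 strata. With OsbZIP77 signals from 20.1 to 22, the median OsbZIP42 signal was 65.7 in 124 77/42-only peaks and 84 in 62 peaks of all 3 proteins. With OsbZIP77 signals from 37.3 to 99, it was 99.8 in 18 and 127 in 161 peaks. Across the 77/42-only peaks Spearman's rho of OsbZIP77 with OsbZIP42 signal was 0.46 (n = 1171), and across the peaks of all 3 proteins it was 0.34 (n = 814). These are descriptions over peaks of the same pair of libraries, and fragments of DNA, base composition and mappability are common to both.

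OsbZIP69 was missing most often where both signals were weak. With each signal divided into 5 groups of similar size, 89.9% (84.9 to 93.8) of the 199 peaks weakest for both proteins lacked OsbZIP69. Of the 150 peaks strongest for both, 11.3% (6.74 to 17.5) lacked it. Among the 118 peaks in the strongest OsbZIP77 group and the fourth OsbZIP42 group the share was 24.6% (17.1 to 33.4). Among peaks strongest for OsbZIP42 it was 66.7% (52.1 to 79.2) of 51 peaks in the second OsbZIP77 group. The shares between these ends did not fall at every step. In the weakest OsbZIP77 group, for example, the share was 78.0% (68.1 to 86.0) in the second OsbZIP42 group and 87.9% (76.7 to 95) in the third. In the fourth OsbZIP77 group it was 54.2% (32.8 to 74.4) of 24 peaks in the weakest OsbZIP42 group and 65.9% (54.8 to 75.8) of 85 peaks in the second, and these intervals overlap. Among the 21 peaks strongest for OsbZIP42 and weakest for OsbZIP77, 5 lacked OsbZIP69, or 23.8% (8.22 to 47.2), below the 82.8% (64.2 to 94.2) of 29 peaks in the fourth OsbZIP42 group.

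**Figure D3:**
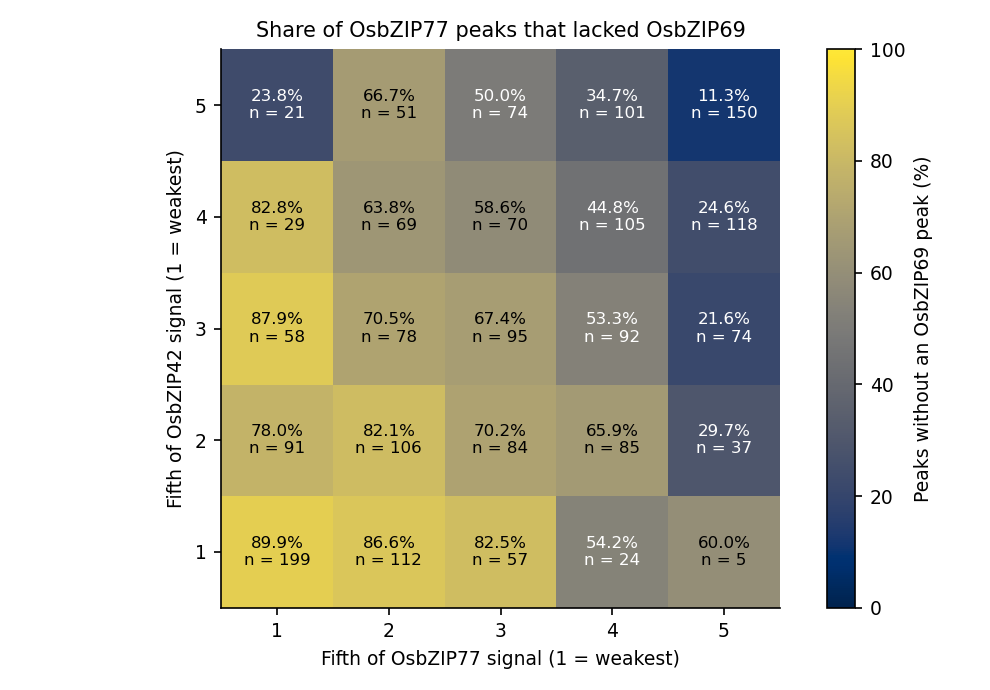
Percentage of OsbZIP77 peaks with OsbZIP42 that lacked OsbZIP69, by group of OsbZIP77 signal (x axis) and of OsbZIP42 signal (y axis), with the number of peaks per cell. The share is 89.9% where both signals are weakest and 11.3% where both are strongest. It does not fall at every step between them, and the upper left cell stands at 23.8% of 21 peaks.

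The peaks of all 3 proteins were also divided into 3 groups by their OsbZIP69 signal. The median OsbZIP77 signal was 19 without an OsbZIP69 peak, 23 with OsbZIP69 signals from 10 to 24 (299 peaks), 28 with signals from 24.3 to 39.2 (243 peaks) and 36 with signals from 39.5 to 263 (272 peaks). The median OsbZIP42 signal followed the same order, at 60.7, 87, 98 and 125.5. The 77/42-only peaks thus stood below the peaks with the weakest OsbZIP69 signals, in a series without a break in direction. At like OsbZIP42 signal the 77/42-only median was lower than that of the peaks with the weakest OsbZIP69 signals in 9 of 10 strata and equal in 1. The size of the step varied, with 17 against 21 in the second stratum, 22 against 27 in the sixth, 23 against 28 in the ninth and 24 against 24.75 in the strongest. The OsbZIP69 list began at a signal of 9.2, and no read depth was given for any library. Binding of OsbZIP69 below the limit of its list cannot be told apart from no binding.

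The ratio of OsbZIP77 to OsbZIP42 signal, in unmatched units, had a median of 0.330 (0.315 to 0.346) at the 77/42-only peaks and 0.272 (0.261 to 0.291) at the peaks of all 3 proteins. OsbZIP77 exceeded OsbZIP42 in signal at 22 of the 1171 77/42-only peaks, or 1.88% (1.18 to 2.83), against a background of 1.56% over all 1985 peaks with an OsbZIP42 partner. That share lies near the background. A ratio over 2-fold above the median of all 1985 peaks, that is above 0.610, occurred at 180 of the 77/42-only peaks, or 15.4% (13.4 to 17.6), with a background of 12.6%. A ratio over 2-fold below that median occurred at 140, or 12% (10.2 to 14), with a background of 14.8%. The background contains the 77/42-only peaks themselves. In the peaks of all 3 proteins the higher ratio occurred at 8.72% (6.87 to 10.9) and the lower at 18.9% (16.3 to 21.8). The ratio, with OsbZIP42 signal as its denominator, fell as that signal rose, with medians of 0.714 in the 77/42-only peaks and 0.764 in the peaks of all 3 proteins in the weakest of the 10 strata, and of 0.0949 and 0.119 in the strongest. At like OsbZIP42 signal the 77/42-only peaks had the lower median ratio in all 10 strata, opposite to the order of the overall medians.

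The 10 strongest 77/42-only peaks lay at least 32242 bp from any OsbZIP69 centre. The strongest lay on chromosome 12 from 8532507 to 8532707, with an OsbZIP77 signal of 69 (rank 13) and an OsbZIP42 signal of 86 (rank 2153). The nearest OsbZIP69 centre was 459715 bp away. A HALO-GST peak was centred 572 bp away and the OsbZIP42 centre was offset by 20 bp, and the part of either in its signal was not tested. The next lay on chromosome 9 from 17428552 to 17428752, with signals of 51 for OsbZIP77 and 136 for OsbZIP42 and an OsbZIP69 centre 73320 bp away.

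The third, on chromosome 5 from 17720602 to 17720802, had signals of 46 for OsbZIP77 and 133.5 for OsbZIP42. Its OsbZIP42 peak had another OsbZIP42 centre 70 bp away. On chromosome 4, the peak from 12537904 to 12538104 had signals of 44 for OsbZIP77 and 58 for OsbZIP42, rank 103 in the OsbZIP77 list and 14.8% of the way down the OsbZIP42 list. Chromosome 1 held 3 of the 10 strongest. The first of these, from 4111726 to 4111926, had an OsbZIP77 signal of 40.8 and an OsbZIP42 signal of 96.6. The others, from 7297644 to 7297844 and from 8126785 to 8126985, each had an OsbZIP77 signal of 43, with OsbZIP42 signals of 182.8 and 130.3.

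Of the remaining 10 strongest, the peak on chromosome 10 from 2759213 to 2759413 had signals of 42 for OsbZIP77 and 52 for OsbZIP42, and a HALO-GST centre lay 2480 bp away. The peak on chromosome 8 from 27486290 to 27486490 had signals of 40 and 75 in the same order. A peak on chromosome 9 from 3314501 to 3314701 tied with it at 40 and had an OsbZIP42 signal of 150. The peak on chromosome 3 from 33169682 to 33169882 had an OsbZIP77 signal of 40 and an OsbZIP42 signal of 19.8. This gave the highest ratio of all 77/42-only peaks, 2.02, at a place of 6.92% in the OsbZIP77 list and 64.3% in the OsbZIP42 list. Another OsbZIP42 centre lay 36 bp from that OsbZIP42 peak, and its part in the ratio was not tested.

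The other 4 of the 5 highest ratios were as follows. On chromosome 8 from 19922182 to 19922382 the signals were 22 for OsbZIP77 and 13.1 for OsbZIP42, a ratio of 1.68. On chromosome 5 from 17316291 to 17316491 they were 24 and 17, on chromosome 3 from 35475265 to 35475465 they were 20.5 and 15.4, and on chromosome 2 from 7255784 to 7255984 they were 22 and 16.6, in the same order. High ratios fall at weak OsbZIP42 peaks by construction, since OsbZIP42 signal is the denominator, and in unmatched units a ratio of 1 marks no particular level.

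The 5 places with the highest OsbZIP42 signal were ordinary or weak for OsbZIP77. On chromosome 11 from 20549341 to 20549541 OsbZIP77 had a signal of 19 (rank 1313), while OsbZIP42 had 464 (rank 7). On chromosome 2 from 18092542 to 18092742 the signals were 12 for OsbZIP77 (rank 1931.5, ties averaged) and 381 for OsbZIP42 (rank 25). The ratio there, 0.0315, was the lowest of all 77/42-only peaks. Chromosome 7 held places from 21635929 to 21636129 and from 24348486 to 24348686, with OsbZIP77 signals of 24 and 17 and OsbZIP42 signals of 352 and 349. The place on chromosome 6 from 27842738 to 27842938 had 20 for OsbZIP77 and 342 for OsbZIP42. OsbZIP69 centres were between 8568 and 130763 bp away from these 5 places.

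Few 77/42-only peaks lay near the limit of 100 bp. An OsbZIP69 centre lay within 200 bp of 9 of the 1171 peaks and within 1000 bp of 18, and the median distance to the nearest was 97921 bp. Just outside the limit, at 108 bp, was a peak on chromosome 7 from 29138874 to 29139074 with signals of 15.9 for OsbZIP77 and 92 for OsbZIP42, and the OsbZIP69 peak there had a signal of 122. The next was at 113 bp, on chromosome 9 from 21099086 to 21099286, with 20.7 for OsbZIP77 and 237.3 for OsbZIP42. Just inside the limit, at 89 and 88 bp, were peaks on chromosome 5 from 23734967 to 23735167 and on chromosome 11 from 19853142 to 19853342, with OsbZIP77 signals of 13.3 and 18. Most peaks of all 3 proteins were far inside it: in 702 of 814 the OsbZIP69 and OsbZIP77 centres were at the same base.

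The OsbZIP77 and OsbZIP42 centres were nearly as close without OsbZIP69 as with it. They lay within 10 bp of each other at 999 of the 1171 77/42-only peaks, or 85.3% (83.2 to 87.3), and at 706 of the 814 peaks of all 3 proteins, or 86.7% (84.2 to 89.0). Offsets over 50 bp occurred at 34 77/42-only peaks, or 2.90% (2.02 to 4.03), and at 11 peaks of all 3 proteins, or 1.35% (0.676 to 2.41). The 172 77/42-only peaks with an offset over 10 bp had a median OsbZIP77 signal of 19, against 20 for the 999 closer ones, and a median OsbZIP42 signal of 73.5 against 59.

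The 77/42-only peaks had fewer close neighbours in these lists. Another OsbZIP42 centre lay within 200 bp of their OsbZIP42 peak at 15.0% (13 to 17.2), against 26.7% (23.6 to 29.8) for the peaks of all 3 proteins. Within 1000 bp the shares were 35.0% (32.3 to 37.8) and 44.1% (40.7 to 47.6), and within 10000 bp they were 84.7% (82.5 to 86.7) and 87.6% (85.1 to 89.8). The gap was therefore widest, as a ratio, at the shortest distance. A second OsbZIP77 centre lay within 200 bp of 8 77/42-only peaks, or 0.683% (0.295 to 1.34), and of 44 peaks of all 3 proteins, or 5.41% (3.95 to 7.19). No 77/42-only peak had another OsbZIP77 centre within 100 bp (0 of 1171, for which the exact interval reaches up to 0.315%), while 28 of the 814 peaks of all 3 proteins did. Each peak of a close pair was counted, so the 28 are peaks and not separate places. The 814 peaks had 804 different nearest OsbZIP69 peaks, so a single OsbZIP69 peak could place neighbouring OsbZIP77 peaks in this group. A crowded place offers more centres within the 100 bp limit of the rule. After seeing the data, the peaks of all 3 proteins were restricted to those with an OsbZIP69 centre within 10 bp. The others were left out and the 77/42-only peaks stayed the same. The difference was then -8.47 percentage points within 200 bp, against -11.6 as given above, and -5.46 points within 1000 bp, against -9.09.

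At like OsbZIP42 signal the difference in close OsbZIP42 neighbours shrank but kept its sign. Within 200 bp it averaged -8.15 percentage points over the 10 strata and was negative in 7. It was largest in the strongest stratum, with 15.1% of 53 77/42-only peaks and 39.7% of 146 peaks of all 3 proteins. In the eighth stratum the shares were 25% and 23.6% in the same order. Within 1000 bp the average was -3.18 points and 5 of 10 strata were negative, so no common direction appeared there.

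**Figure D4:**
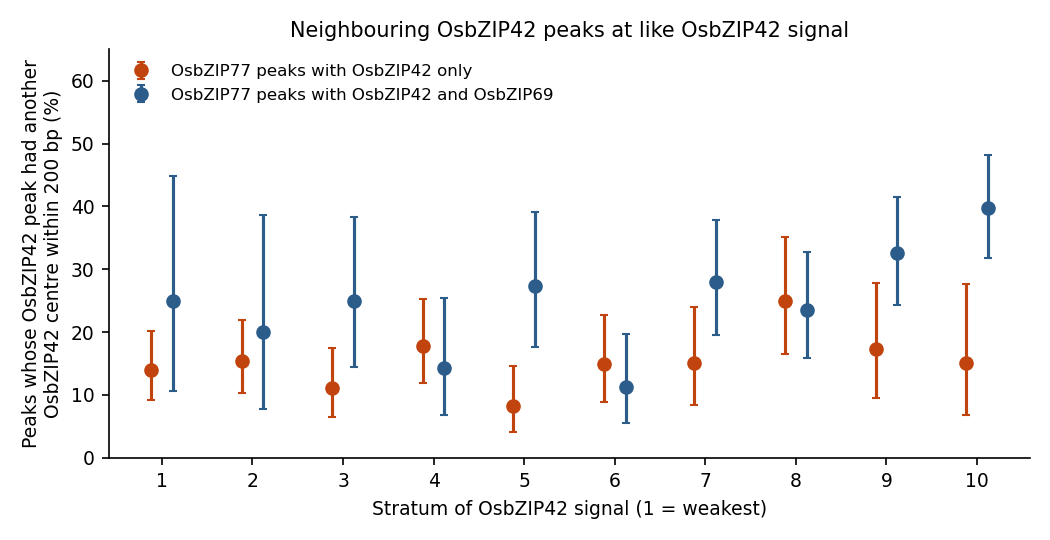
Percentage of OsbZIP77 peaks whose OsbZIP42 peak had another OsbZIP42 centre within 200 bp, in 10 strata of OsbZIP42 signal, with exact 95% intervals (bars). Peaks with OsbZIP42 only are lower than those with OsbZIP42 and OsbZIP69 in 7 strata, with 15.1% against 39.7% in the strongest, and most intervals overlap.

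The 77/42-only peaks were spread over all 12 chromosomes. Their density up to the last peak of any list ran from 2.42 per Mb on chromosome 4 to 4.12 per Mb on chromosome 1, which with 178 peaks held the most. As a share of the OsbZIP77 peaks with an OsbZIP42 partner they made up 59.0% (56.8 to 61.2) over all chromosomes. The highest share was 64.6% (54.2 to 74.1) on chromosome 9 and the lowest 52.0% (43.7 to 60.3) on chromosome 11, followed by 53.8% (45.3 to 62.2) on chromosome 12. Every one of these 12 intervals held the overall share.

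**Figure D5:**
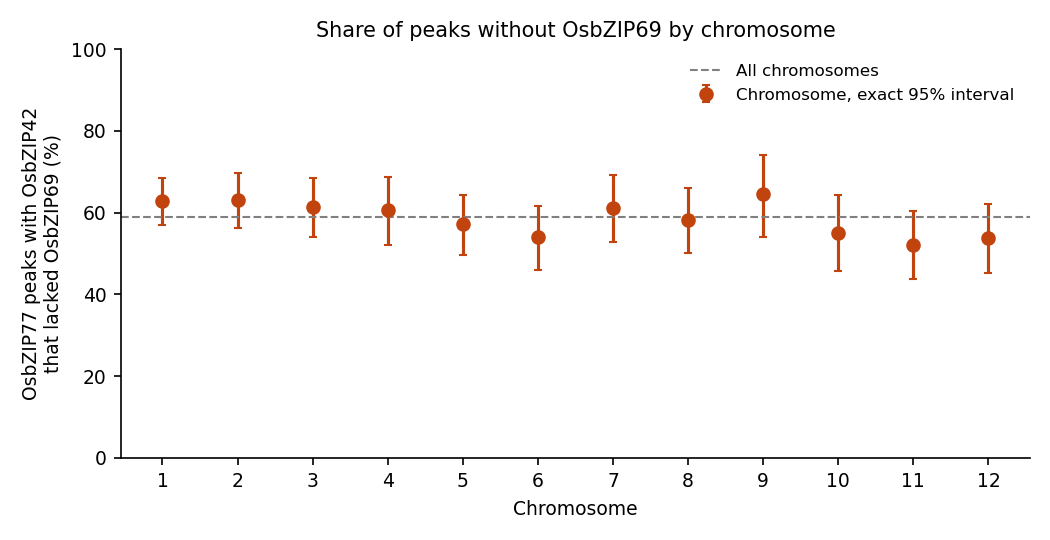
Percentage of OsbZIP77 peaks with an OsbZIP42 partner that lacked OsbZIP69, by chromosome, with exact 95% intervals (bars) and the value over all chromosomes (dashed line, 59.0%). Shares run from 52.0% on chromosome 11 to 64.6% on chromosome 9, and all intervals cover the line.

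Position along the chromosome made little difference. With each chromosome divided into 5 equal lengths between its outermost peaks, the share of 77/42-only peaks was 58.8% (54.2 to 63.2), 62.1% (55.9 to 68.0), 58.5% (52.3 to 64.5), 57.5% (52.5 to 62.4) and 59.0% (54.9 to 63.1) in order of coordinate. Within 1 Mb of the outermost peaks it was 61.0% (52.3 to 69.3), and beyond 10 Mb it was 58.9% (54.5 to 63.2). Differences in position were therefore not detectable with these numbers of peaks.

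The control had almost no peaks at these places, but its list held only 194 peaks in all. Few control centres could therefore lie near any set of places. The counts cannot show that these places were free of control binding. Of the 1171 77/42-only peaks, 2 had a HALO-GST centre within 1000 bp, against 0 of the 814 peaks of all 3 proteins. The exact interval for that count of 0 of 814 reaches up to 0.452%. Within 10000 bp the counts were 14 and 10, or 1.20% and 1.23%. Per the file names, a negative control entered the calling of the bZIP lists, so places rich in control reads were already discounted.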

How the data were processed

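DAP-seq peak lists of OsbZIP77, OsbZIP42, OsbZIP69 and HALO-GST were used, 1 library each, with groups taken from the sample titles. The submitters' processing notes name Bowtie2 2.2.8 for the alignment. Peaks were called with GEM, per the names of the deposited files, with a negative control for the bZIP lists and without one for HALO-GST. All deposited intervals are 201 bp wide. The signal per peak is the authors' deposited value, with no unit or scaling between libraries stated. In the authors' deposited −log10 q-values the minimum of each list is 2.00. Depth per library is unknown, since no read numbers were used here.

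Ranks (ties averaged) are within each deposited list. The nearest OsbZIP42 centre gave the OsbZIP42 values, and strata were equal-size groups of its signal. Intervals on medians are exact order-statistic intervals. Peaks are not replicates and no p-value is given. The rule, the comparisons and the named places (10 by OsbZIP77 signal, 5 by OsbZIP42 signal, 5 by ratio, and those nearest the 100 bp limit) were chosen with earlier results of these data known. The comparison at like OsbZIP77 signal, the grid, the OsbZIP69 groups and the 200 bp neighbours were added after seeing these files. Scripts used Python 3.11.15, pandas 2.3.3 and SciPy 1.17.1 and were tested on simulated lists. Alternatives were windows of 50 to 500 bp, a q-value limit of 0.001, other strata and peaks near HALO-GST left out. Genes and sequence motifs were not analysed here, for want of a matching genome.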

Additional observations from a re-analysis of the deposited data

How the results depend on the processing

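Of 60 alternatives for 8 results, 54 were planned and 6 were added after seeing the data. In 53 of them the value stayed within the counting interval of the reported value, or within 1.5 times for the count of peaks, and no difference changed sign. The other 7 came from a stricter q-value or a narrower window. With q at most 0.001 in all lists, which by construction removes weak peaks, 636 77/42-only peaks remained, the difference in OsbZIP77 place became 25.8 percentage points and that in OsbZIP42 place 6.21 points. With the limit in the OsbZIP77 list alone these values were 532, 24.8 and 7.0. A window of 50 bp raised the share of centres within 10 bp to 87.7%, since it drops the larger offsets. At like OsbZIP42 signal the difference in OsbZIP77 place stayed between 16.7 and 20.6 points in all alternatives run, and 19 of 20 strata kept its direction when 20 strata were used. Restricting the peaks of all 3 proteins to OsbZIP69 centres within 10 bp brought the difference in neighbours within 1000 bp to -5.46 points, against -9.09 as reported. No paired analysis was possible because the study has 1 library per protein, and no replicate could be left out. Unknown depth limits any statement on the absence of OsbZIP69.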

Other observations

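The centres of OsbZIP77 and OsbZIP42 were almost never at the same base. Among the 1171 77/42-only peaks the OsbZIP42 centre was 1 bp from the OsbZIP77 centre at 931, or 79.5% (exact 95% interval 77.1 to 81.8), and at the same base at 5. It lay 1 bp to the right at 465 and 1 bp to the left at 466. The peaks of all 3 proteins gave 662 of 814 at 1 bp, or 81.3% (78.5 to 83.9), and 0 at the same base, whereas OsbZIP69 and OsbZIP77 centres coincided at 702 and were 1 bp apart at 12. The displacement of OsbZIP42 by 1 bp was therefore as common without an OsbZIP69 peak as with one. Its source was not tested.

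Among the 21 peaks strongest for OsbZIP42 and weakest for OsbZIP77, the 16 that had OsbZIP69 included 4 with another OsbZIP77 centre within 100 bp, against 0 of the 5 without OsbZIP69. The OsbZIP77 centre was within 10 bp of the OsbZIP42 centre at 6 of the 16 and at 4 of the 5. These counts are small, and the cell was singled out after its values were seen.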
